A study of Mus musculus with 90 samples.

Results

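Uninjured quadriceps muscle of sedentary mice was compared between 2 genotypes, labelled Piezo1 FL and Piezo1 WT, with 3 whole-muscle RNA libraries of each. These 6 libraries were chosen by their names in the count table and are 6 of the 90 in the series. The FL mice carried a Cre transgene under the Pdgfra promoter together with floxed Piezo1 alleles (Pdgfra-Cre.Piezo1f/f), and the WT mice carried the same Cre with wild-type alleles (Pdgfra-Cre.Piezo1+/+), so Cre was present in both groups. Mice of this cohort were littermates, had no cardiotoxin injection and were not exercised, and the sources used here give no age for them. The sample labels give the tissue as muscle, and the design text names the quadriceps as the skeletal muscle taken from uninjured sedentary mice of these genotypes. Other parts of the series examine exercised, injured or agonist-treated material, and also stromal cells of sedentary mice and heart and liver of uninjured mice. This comparison asks how the whole muscle of the 2 genotypes differs at rest.

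PIEZO1 is a cation channel that opens when the cell membrane is stretched. Pdgfra marks the stromal cells of muscle, also called fibro-adipogenic progenitors, which lie between the fibres, build the extracellular matrix and release signals to immune cells and satellite cells. A Cre under the Pdgfra promoter acts in these cells and in any cell descended from one that used the promoter, while muscle fibres, which supply most of the RNA of a whole muscle, are not a known target of it.

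The libraries held 6632892 to 7883104 counts, and mitochondrially encoded genes took 5.98% to 6.62% of them. Fibre genes led the libraries: per kilobase of exon, Acta1, skeletal muscle actin, stood first with 47500 CPM per kilobase (CPM being counts per 1000000 counts of a library after TMM scaling), followed among nuclear genes by Atp2a1, the fast-fibre calcium pump, at 19200 and Mylpf, a fast myosin light chain, at 13000. The 21 fibre markers summed to 313900 to 350900 CPM in every library, which fits the labelled tissue. All 6 libraries had 330 to 423 counts of the Y-linked Ddx3y and 0 to 2 of Xist. The number of genes with at least 1 count was 20417, 19617 and 19234 in WT and 21408, 21449 and 20723 in FL, with no overlap between genotypes. An exact permutation test of that difference gave p = 0.1, the smallest p that 3 against 3 libraries allow, and the groups still did not overlap after every library was thinned to 6632892 counts (19030 to 20256 in WT, 20564 to 21449 in FL).

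Piezo1 itself, on the minus strand of chr8:122481698-122551329 (mm10), was measured in every library. Its level was 17.0, 8.08 and 8.69 CPM in WT and 10.5, 13.6 and 13.7 CPM in FL. The highest value belonged to a WT library, the 2 lowest to the other WT libraries, and the groups overlapped. The log2 difference of FL minus WT was 0.17 (95% interval -0.39 to 0.72, adjusted p = 0.92). Piezo1 was thus not measured as lower in FL whole muscle, and the interval held differences of either sign. Left out in turn, single libraries moved the value between -0.03 and 0.58, the highest without the first WT library. Gene-level counts do not show which exons were read, so loss of the floxed exons could not be seen, and in bulk tissue fewer cells of a type and less RNA per cell cannot be told apart. Pdgfra, the gene whose promoter drives the Cre, was at 35.4, 31.9 and 41.2 CPM in WT and 30.2, 30.7 and 43.6 CPM in FL, again overlapping (log2 difference -0.05, interval -0.35 to 0.24). Among the 85 genes tested whose start lay within 5 Mb of Piezo1, none was called and 4 had an unadjusted p under 0.05.

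No gene passed the test between the genotypes. Of 11856 genes tested with edgeR's quasi-likelihood test, 0 (0%) had a Benjamini-Hochberg adjusted p under 0.05, and the smallest adjusted p was 0.2355, shared by Fos and Ccn1. DESeq2 and limma voom also called 0 genes. With no filter on low counts, edgeR called 20 of 30391 genes (0.0658%), 16 higher and 4 lower in FL, among them Fos, Egr1, Ccn1, Bcl6b, Cbr2 and Ddit4l described below. At an unadjusted p under 0.05 edgeR gave 771 genes (6.5%), of which 455 (3.84%) were higher and 316 (2.67%) lower in FL. DESeq2 gave 323 and limma voom 783 at that level. Scaled by library size alone, the 779 genes at that level split into 600 higher and 179 lower. The middle 50% of genes tested had a log2 difference between -0.11 and 0.14, with a median of 0.0023. A difference beyond 1 on the log2 scale was measured for 51 genes, and for 0 of the 7120 whose mean reached 10 CPM in either genotype. The precision sets what could be seen: the 95% interval lay wholly within -1 and 1 for 86.5% of genes, and its median half-width was 0.60 below 10 CPM, 0.29 from 10 to 50 CPM and 0.18 above 50 CPM. The labels do not say whether the libraries of a genotype came from separate animals, so these p-values measure the spread between the libraries as deposited.

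**Figure D1:**
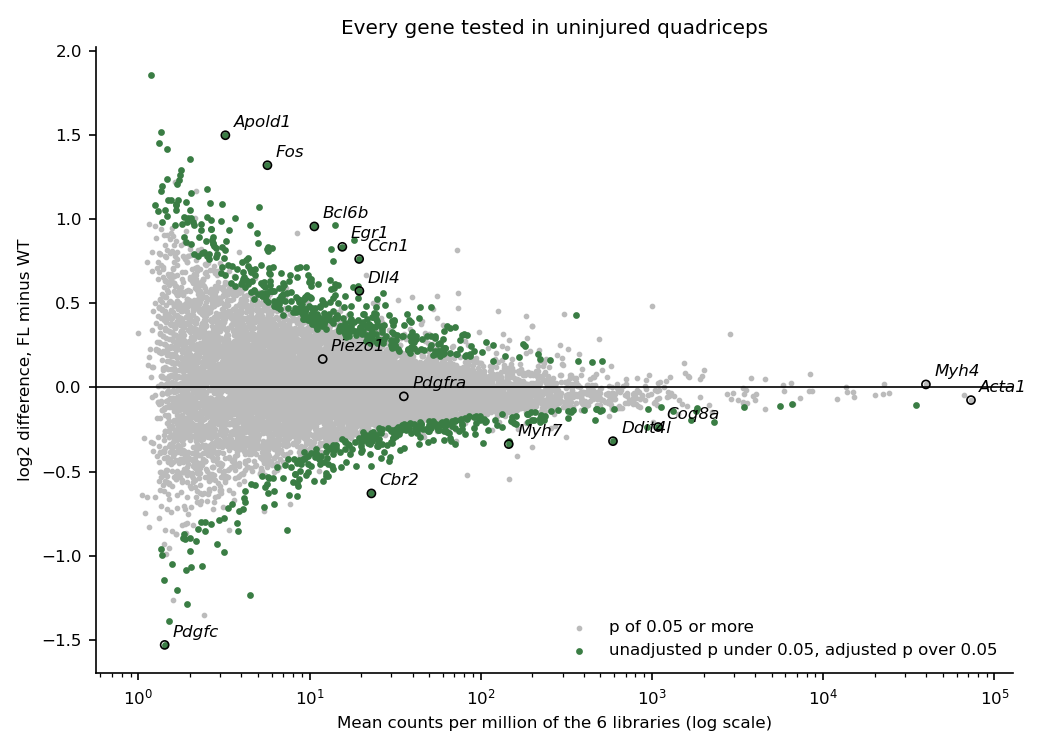
Each point is 1 of the 11856 genes tested, with its mean CPM over the 6 libraries on a logarithmic horizontal axis and the log2 difference of FL minus WT on the vertical axis. Green points have an unadjusted p under 0.05, none has an adjusted p under 0.05, and the spread narrows from left to right, with Fos and Apold1 above 1 and Myh4 and Acta1 near 0.

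The genes with the smallest p included several immediate early genes, which are transcribed within minutes of a stimulus and code mostly for transcription factors and feedback regulators. Fos, a subunit of AP-1 at chr12:85473890-85477273, was at 3.46, 3.00 and 3.28 CPM in WT and 9.69, 7.91 and 6.71 CPM in FL. Every FL library was above every WT library, at a level below 10 CPM throughout (log2 difference 1.32, interval 0.81 to 1.83, adjusted p = 0.2355). Egr1, a zinc-finger transcription factor, was at 11.1, 8.74 and 13.7 CPM in WT and 16.6, 23.4 and 19.7 CPM in FL (log2 difference 0.84, interval 0.47 to 1.2, adjusted p = 0.259). Btg2, an antiproliferative gene, stood at 20.7, 21.1 and 19.7 CPM in WT and at 33.3, 26.9 and 25.7 CPM in FL (log2 difference 0.48, interval 0.22 to 0.74, adjusted p = 0.585). The groups did not overlap for either gene. Ier2, named after its values were seen, was at 6.77, 9.52 and 12.2 CPM in WT and 22, 22.2 and 11.4 CPM in FL, where the third FL library lay inside the WT range.

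Of the 29 immediate early genes listed, 18 had enough counts to be tested. None was called, 15 had a positive and 3 a negative log2 difference, and the list's median was 0.215 beside 0.0023 for all genes tested. Under RLE, upper quartile, library-size and DESeq2 scaling 15 or 16 of the 18 stayed positive. Of the 18, 7 had an unadjusted p under 0.05 and all 7 were higher in FL; 5 did not overlap between genotypes, where 6.37% of all genes tested were higher in FL without overlap. Without the second WT library 12 were positive and 6 negative, and 3 had an unadjusted p under 0.05. The median was 0.337 without the first WT library. The summed level of the list overlapped, at 479.7 to 596.5 CPM in WT and 590 to 686.4 CPM in FL. With a minimum count of 30, 15 members were tested, of which 14 were positive and 1 negative, and the median was 0.264. The higher number of genes with a count in FL libraries, given above, went the same way as this list, and its part in the list's differences was not tested.

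Ccn1, a secreted matrix protein and a target of YAP and TEAD at chr3:145646976-145649981, was at 13.4, 13.8 and 16.1 CPM in WT and 20.5, 24.2 and 28.9 CPM in FL. The FL libraries were all higher (log2 difference 0.76, interval 0.45 to 1.07, adjusted p = 0.2355). Amotl2, another YAP target, was at 15.3, 15.6 and 13.2 CPM in WT and 18.4, 18.6 and 19.6 CPM in FL (log2 difference 0.36, adjusted p = 0.758). Of the 11 tested members of the YAP and CCN list, which includes this pair, 5 were positive and 6 negative, none was called, and the median was -0.03 (0.0008 under scaling by library size alone, and from -0.0545 to 0.0562 with 1 library left out, the extremes being without the second and without the first WT library). Csrp3, a muscle LIM protein of the same list, had 48.5, 32.3 and 29.1 CPM in WT and 33.4, 33.4 and 24.7 CPM in FL. Ccn2 was too low to be tested.

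**Figure D2:**
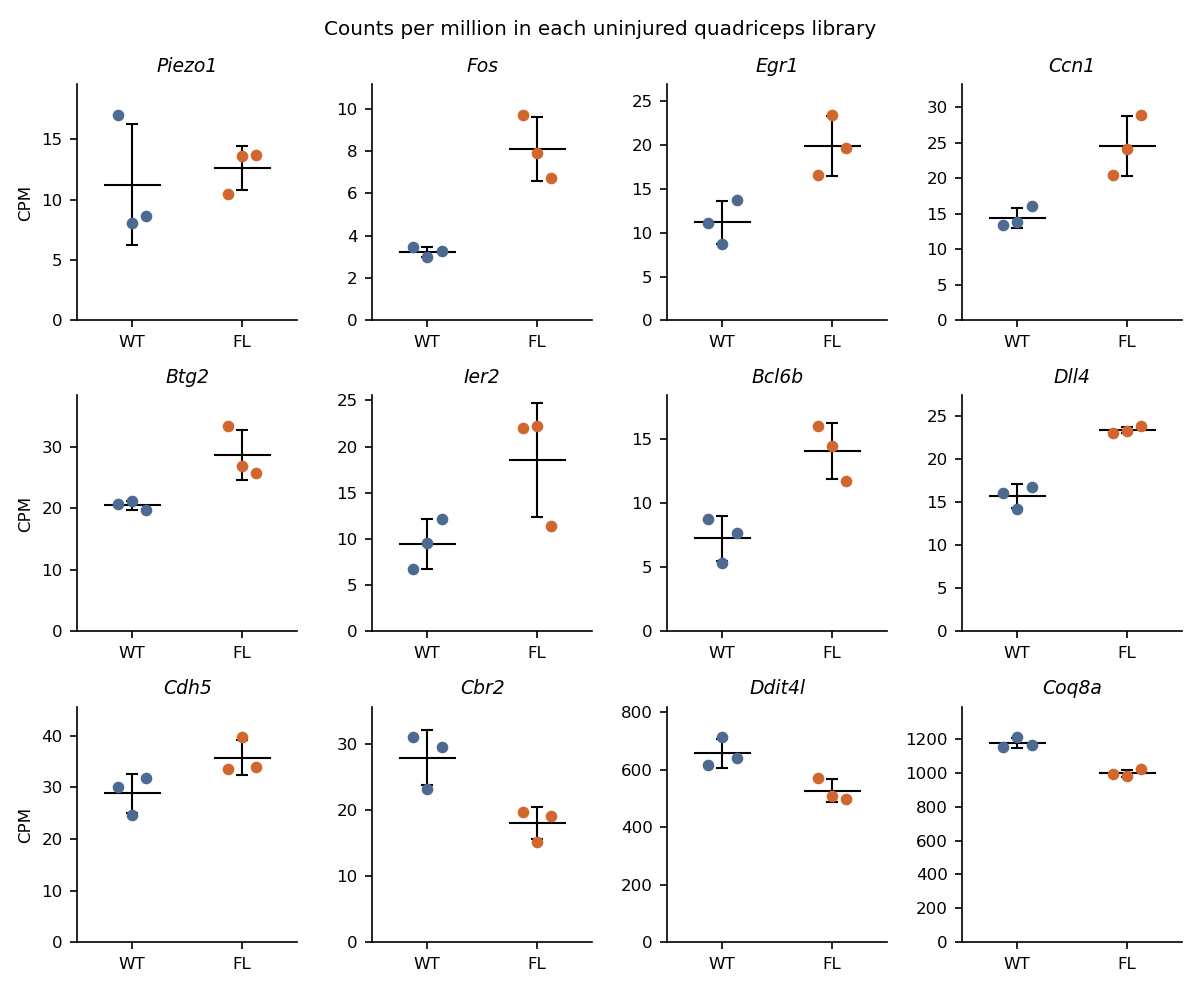
Each point is 1 library, on a vertical axis of CPM that starts at 0, with the mean (long bar) and SD (whiskers) of the 3 libraries of a genotype. Piezo1 and Ier2 overlap between genotypes, Fos, Egr1, Ccn1, Btg2, Bcl6b, Dll4 and Cdh5 lie higher in all 3 FL libraries, and Cbr2, Ddit4l and Coq8a lie lower in all 3; no gene shown has an adjusted p under 0.05.

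Bcl6b, a transcriptional repressor found in endothelium, was at 8.78, 5.35 and 7.69 CPM in WT and 16, 14.5 and 11.7 CPM in FL (log2 difference 0.96, interval 0.55 to 1.37, adjusted p = 0.259). Dll4, the Notch ligand of arterial and sprouting endothelium at chr2:119325784-119335962, was at 16.1, 14.2 and 16.8 CPM in WT and at 23.0, 23.3 and 23.8 CPM in FL. The FL libraries of Dll4 were close to each other and all above WT (log2 difference 0.57, interval 0.30 to 0.85, adjusted p = 0.304). Plxnd1, a semaphorin receptor, had a log2 difference of 0.43, and Fzd4, a receptor for Norrin and Wnt ligands, had 0.37, both with an adjusted p of 0.585 and no overlap. Adamts1, a secreted protease that cleaves proteoglycans, was at 66.7, 60.5 and 57.8 CPM in WT and 72.6, 76.5 and 87.7 CPM in FL (log2 difference 0.36). Apold1, an endothelial early response gene named after its values were seen, was at 2.30, 1.04 and 1.71 CPM in WT and 4.07, 6.56 and 3.65 CPM in FL, with no overlap (log2 difference 1.5, interval 0.76 to 2.24, adjusted p = 0.383).

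All 15 endothelial markers of the list had a positive log2 difference, and none was called. Their median was 0.145, 4 had an unadjusted p under 0.05, and 4 lay higher in FL without overlap, where 6.37% of all genes tested did. All 15 stayed positive under the 4 other scalings, with medians from 0.137 to 0.174, but without the second WT library 10 of the 15 were positive, the median was 0.0744 and none had an unadjusted p under 0.05. Cdh5, the adhesion molecule of endothelial junctions, was at 30, 24.6 and 31.9 CPM in WT and 33.6, 39.7 and 34.0 CPM in FL. Esam, another junction protein, stood at 58.8, 51.8 and 56.1 CPM in WT and 63.3, 61.6 and 70.8 CPM in FL, and Fabp4, a fatty acid carrier of capillaries and fat cells, at 92.7, 74.2 and 87.4 CPM in WT and 107, 93.7 and 94.7 CPM in FL. Adjusted p was 0.758 for each of these 3. Pecam1, the most general marker among them, overlapped at 101, 85.2 and 97.3 CPM in WT and 99.6, 109 and 105 CPM in FL. The summed level of the 15 markers was 1278, 1125 and 1335 CPM in WT and 1333, 1367 and 1319 CPM in FL, overlapping through the third WT library, and the part of endothelial RNA share in the levels of Bcl6b and Dll4 was not tested.

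Of 10 smooth muscle and pericyte markers tested, 9 were positive with a median of 0.129 and none was called. The summed level of the 12 listed overlapped, at 3989, 4350 and 4153 CPM in WT and 4093, 4086 and 4228 CPM in FL. Des, also among the fibre markers, is in that list, so the sum does not measure smooth muscle and pericytes alone. Rgs5, a regulator of G protein signalling typical of pericytes, was at 341, 335 and 375 CPM in WT and 366, 392 and 412 CPM in FL. Notch3, the Notch receptor of mural cells, had a log2 difference of 0.34 and Myh11, smooth muscle myosin, 0.25, and both overlapped between genotypes. Among 17 blood vessel growth factors tested, 12 were positive and none was called, and the median of 0.146 was 0.0394 without the second WT library and 0.222 without the first FL library. Efnb2, the arterial ephrin ligand, was at 2.02, 2.48 and 1.14 CPM in WT and 2.95, 3.13 and 3.79 CPM in FL, and Sema3c, a secreted semaphorin, at 65.8, 68.2 and 66.7 CPM in WT and 73.7, 84.0 and 72.4 CPM in FL. Pdgfc, a PDGF receptor alpha ligand, went the other way: it had 2.45, 2.22 and 1.71 CPM in WT and 0.702, 0.448 and 1.02 CPM in FL (log2 difference -1.53, interval -2.50 to -0.55, adjusted p = 0.758), the lowest log2 difference of any gene tested. The FL levels of Pdgfc were near the limit of measurement.

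The insulin-like growth factor genes were 9 positive of 12 tested, with a median of 0.112 and no call. Without the second WT or the first FL library they split into 6 positive and 6 negative, with medians of 0.0711 and 0.0688, and without the first WT library the median was 0.189. Igfbp3, a binding protein that carries IGFs, was at 7.92, 12.1 and 18.2 CPM in WT and 18.3, 30 and 22 CPM in FL, so the third WT library all but reached the first FL library (log2 difference 0.87, interval 0.14 to 1.60, adjusted p = 0.758). Igfbp4, another binding protein, was at 50.5, 49.6 and 51.1 CPM in WT and 61.6, 56.2 and 55.6 CPM in FL (log2 difference 0.20). Igfbp7 overlapped, with a log2 difference of 0.27.

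Errfi1, a feedback inhibitor of the EGF receptor, was at 39.2, 33.4 and 38.9 CPM in WT and 46.6, 56.1 and 52.2 CPM in FL (log2 difference 0.48, adjusted p = 0.259). Naa15, a subunit of the N-terminal acetyltransferase NatA, stood at 39.7, 38.5 and 49.6 CPM in WT and 65.2, 58.0 and 54.4 CPM in FL (log2 difference 0.48, adjusted p = 0.298). Zfp280b, Sipa1, Vapb, Tmem127 and Ablim3 had log2 differences from 0.41 to 0.61, an adjusted p of 0.585 each, and FL libraries that all lay above WT. Sipa1 is a GTPase-activating protein for Rap, and Vapb anchors proteins at the endoplasmic reticulum.

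Among genes lower in FL, the smallest p belonged to Ddit4l, a stress-response gene that restrains mTOR signalling. It was at 615, 713 and 642 CPM in WT and 572, 509 and 499 CPM in FL (log2 difference -0.32, interval -0.46 to -0.18, adjusted p = 0.259). Coq8a, which supports coenzyme Q synthesis in mitochondria, was at 1149, 1208 and 1164 CPM in WT and 994, 978 and 1019 CPM in FL. The WT libraries of Coq8a all lay above the FL libraries (log2 difference -0.24, interval -0.35 to -0.12, adjusted p = 0.304). Cbr2, a carbonyl reductase, was at 31.0, 23.2 and 29.6 CPM in WT and 19.7, 15.2 and 19.1 CPM in FL (log2 difference -0.63, interval -0.92 to -0.34, adjusted p = 0.298), again without overlap. Trf, transferrin, had a log2 difference of -0.32 and Myoc, myocilin, of -0.31. Paip2b, Asb2, Thnsl1, Smtnl1, Hsph1, Slc25a29, Tpm3, Cdv3 and Mybpc1 had log2 differences from -0.65 to -0.19 and adjusted p from 0.673 to 0.758. Of these 9, Tpm3 and Mybpc1 overlapped between genotypes.

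Genes of fibre metabolism had small negative differences with narrow intervals. All 30 nuclear genes of the respiratory chain listed had a negative log2 difference, from -0.14 to -0.01 with a median of -0.067, and none was called; 2 had an unadjusted p under 0.05 and 11 lay lower in FL without overlap, where 6.09% of all genes tested did. The count depends on the scale: with library size alone 28 of the 30 were negative and the median was -0.0362. Uqcrc1, a core protein of complex III, was at 1869, 1886 and 1948 CPM in WT and 1763, 1668 and 1746 CPM in FL (log2 difference -0.14, interval -0.25 to -0.03, adjusted p = 0.758). Ndufv1, a complex I subunit that binds NADH, was at 639, 632 and 611 CPM in WT and 596, 537 and 587 CPM in FL, and Atp5c1, the gamma subunit of ATP synthase, had a log2 difference of -0.11. Of the 12 mitochondrially encoded genes tested, 8 were negative and 4 positive.

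Fatty acid oxidation genes were negative for 20 of 24, with a median of -0.088 (-0.0565 with library size alone) and no call. It was -0.133 without the first and -0.0504 without the second FL library. Hadhb, the trifunctional enzyme's beta subunit, had a log2 difference of -0.16 and Slc25a20, the carnitine carrier, of -0.20, both without overlap. Lpl, which frees fatty acids from circulating lipoproteins, was at 547, 472 and 475 CPM in WT and 491, 395 and 421 CPM in FL. Of 25 glycolysis and glycogen genes, 19 were negative with a median of -0.052. With library size alone 16 were negative and the median was -0.0221. Gbe1, the glycogen branching enzyme, was at 73.6, 69.4 and 75.6 CPM in WT and 57.7, 66.5 and 62.3 CPM in FL, and Ldha and Ldhb, the lactate dehydrogenase subunits, had log2 differences of -0.11 and -0.20. Proteasome genes were negative for 24 of 27, with a median of -0.070; Psmd8, Psmd11 and Psma7 each had a log2 difference of -0.19 and an adjusted p of 0.758.

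**Figure D3:**
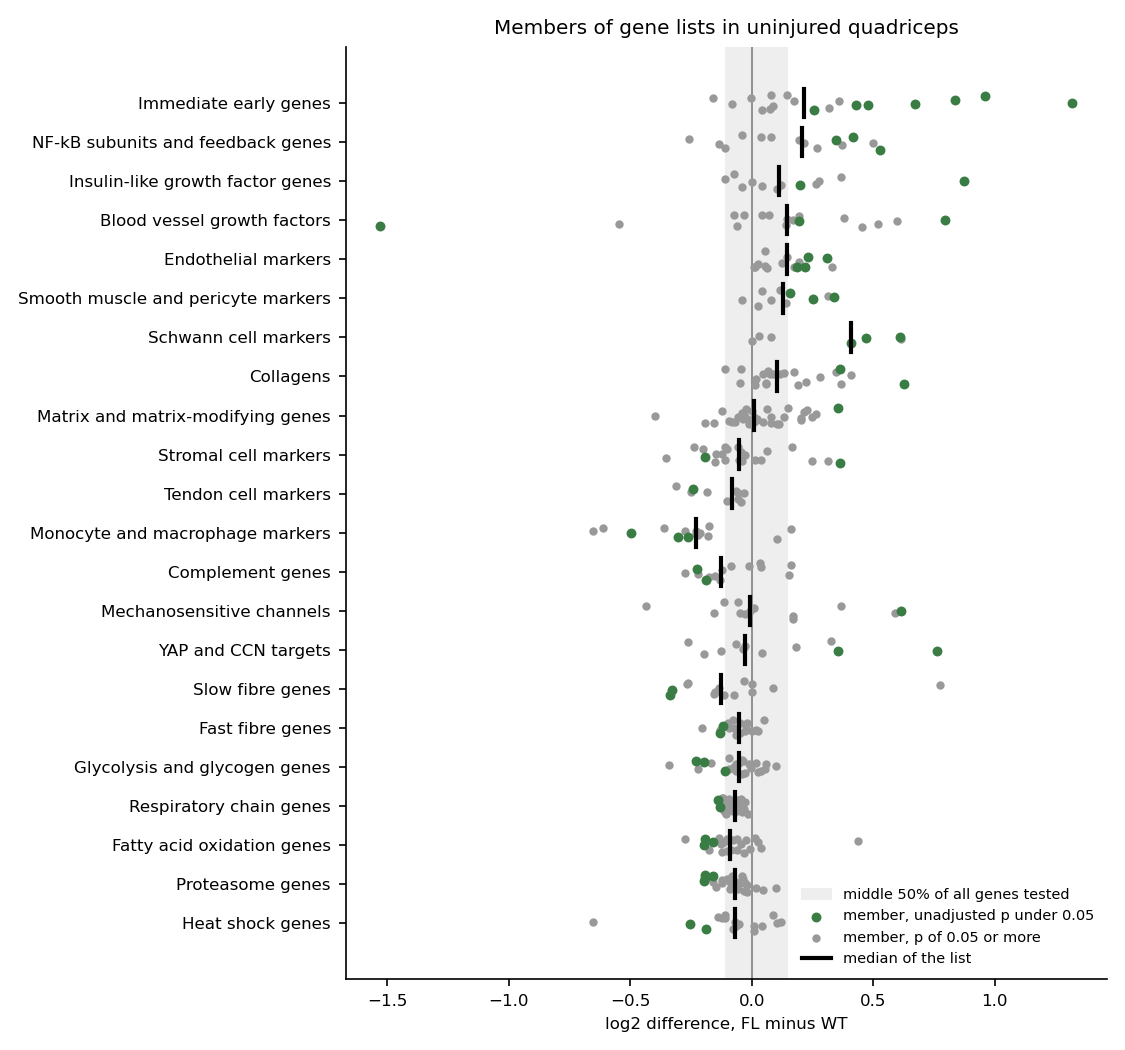
Each row is a gene list and each point a tested member, placed by its log2 difference of FL minus WT, with green for an unadjusted p under 0.05 and a black bar at the list's median. The grey band holds the middle 50% of all genes tested (-0.11 to 0.14): the medians of the immediate early, NF-kB and Schwann cell lists lie to its right, that of the monocyte and macrophage list to its left, and the respiratory chain members cluster just below 0.

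Fibre type was described by the adult myosin heavy chains, compared per kilobase of exon. Myh4, the fast IIb isoform, made up 86.4% to 89.7% of the 6 isoforms measured in every library, Myh1, the IIx isoform, 8.4% to 11.7%, and Myh2, the IIa isoform, 1.65% to 2.53%. Myh4 was at 39356, 40808 and 38415 CPM in WT and 36983, 39918 and 43174 CPM in FL, a log2 difference of 0.02 (interval -0.08 to 0.12). Myh1 and Myh2 also overlapped between genotypes, with log2 differences of -0.13 and -0.20. Myh7, the slow type I isoform, was at 182, 178 and 128 CPM in WT and 122, 128 and 136 CPM in FL, so 2 WT libraries were higher and the third sat among the FL libraries (log2 difference -0.34, interval -0.59 to -0.08, adjusted p = 0.758). Its share was 0.283%, 0.271% and 0.201% in WT and 0.202%, 0.2% and 0.198% in FL. Tpm3, the slow tropomyosin, was at 129, 122 and 92.7 CPM in WT and 92.1, 92.9 and 89.0 CPM in FL, and the third WT library was likewise the lowest of its group. Of 14 slow fibre genes tested, 11 were negative with a median of -0.124, which was -0.0147 without the first WT library and -0.198 without the third.

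Fast fibre genes were negative for 16 of 20 with a median of -0.053, and 12 of 20 were negative with library size alone. Without the first FL library the median was -0.0347, and without the third it was -0.0845. Tnnc2, fast troponin C, was at 950, 1023 and 981 CPM in WT and 893, 884 and 925 CPM in FL, while Myoz1 and Pgam2 had log2 differences of -0.12 and -0.09. Acta1 was at 69446, 77926 and 77078 CPM in WT and 68770, 70522 and 73787 CPM in FL (log2 difference -0.08), and Ckm, muscle creatine kinase, at 33940, 38164 and 35892 CPM in WT and 32127, 33426 and 35026 CPM in FL (log2 difference -0.10). Both overlapped. Myod1, a regulator of the myogenic programme, was at 30.2, 21.9 and 27.9 CPM in WT and 17.1, 17.0 and 23.6 CPM in FL (log2 difference -0.47, interval -0.78 to -0.16, adjusted p = 0.758). Mef2a, a transcription factor of mature fibres, had a log2 difference of 0.26 and Myf6 of -0.17. Pax7, the marker of satellite cells, was near the limit of measurement, at 2.16, 0.913 and 0.997 CPM in WT and 1.26, 2.24 and 2.19 CPM in FL. At the neuromuscular junction, Musk, the kinase that clusters acetylcholine receptors, was at 51.6, 59.5 and 45.4 CPM in WT and 42.4, 40.6 and 48.7 CPM in FL.

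The stromal cells in which the Cre acts were measured through 22 markers, 15 negative and 7 positive, with a median of -0.054 that was -0.111 without the third FL library and 0.0146 without the third WT library. None was called. Ly6a, the gene of Sca-1, was at 61.5, 54.2 and 52.7 CPM in WT and 53.1, 52.7 and 50.2 CPM in FL, and Dcn, the proteoglycan decorin, at 619, 723 and 699 CPM in WT and 600, 599 and 677 CPM in FL. Both overlapped, with log2 differences of -0.11 and -0.12. Col15a1, a basement membrane collagen, stood at 20.9, 15.4 and 23.8 CPM in WT and 23.9, 28.3 and 25.0 CPM in FL, and Ackr3, a scavenging chemokine receptor, had a log2 difference of 0.32. The summed level of the list overlapped, at 4442 to 5038 CPM in WT and 4029 to 4670 CPM in FL. All 10 tendon cell markers tested were negative, with a median of -0.081 and no call. The median was -0.257 without the second FL library and -0.014 without the first, when 6 of the 10 were negative. Comp, a cartilage and tendon matrix protein, was at 25.5, 28.0 and 29.1 CPM in WT and 23.3, 23.4 and 23.1 CPM in FL. Their summed level also overlapped, at 693.2 to 871.2 CPM in WT and 657.4 to 779 CPM in FL.

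The chief fibrillar collagens varied more within a genotype than between the genotype means. Col1a1, the main fibrillar collagen chain, was at 864, 669 and 1181 CPM in WT and 730, 1069 and 1005 CPM in FL, and Col3a1 at 1349, 833 and 1539 CPM in WT and 1040, 1478 and 1360 CPM in FL. The second WT and first FL libraries were the lowest of their groups for both genes, and the log2 differences were 0.05 (interval -0.73 to 0.83) and 0.06 (interval -0.75 to 0.87). Over the whole collagen list 19 of 22 were positive with a median of 0.103, which was 0.003 without the second WT library and 0.276 without the third. Col8a2 was at 2.16, 3.39 and 3.99 CPM in WT and 5.20, 4.62 and 4.96 CPM in FL, and Col18a1 overlapped with a log2 difference of 0.35. The 35 matrix and matrix-modifying genes tested split into 21 positive and 14 negative, with a median of 0.01. Without the second WT or the second FL library the split was 11 and 24, with medians of -0.077 and -0.0589, and without the third WT library it was 31 and 4, with a median of 0.135.

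Among 13 tested genes of mechanosensitive channels, 6 were positive and 7 negative, and none was called. The median of -0.0073 was 0.0724 without the third WT library, when 9 were positive. Tmc7, of the transmembrane channel-like family, was at 8.50, 8.87 and 16.1 CPM in WT and 19.2, 15.1 and 16.8 CPM in FL (log2 difference 0.62, interval 0.17 to 1.06, adjusted p = 0.758). The third WT library lay among the FL values. Pkd2, polycystin 2, had a log2 difference of 0.37 with an interval that included 0.

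Of the monocyte and macrophage markers, 13 of 15 tested had a negative log2 difference, with a median of -0.23 that was -0.355 without the second WT library and -0.175 without the third, and none was called. Cd74, the invariant chain of antigen presentation, was at 75.9, 66.2 and 76.9 CPM in WT and 55.6, 68.0 and 54.0 CPM in FL. Lyz2, lysozyme, was at 83.2, 75.2 and 84.6 CPM in WT and 65.6, 76.2 and 61.1 CPM in FL, and Adgre1, which codes for F4/80, at 11.7, 8.61 and 10.8 CPM in WT and 6.18, 8.80 and 7.00 CPM in FL. In all 3 genes the second FL library was the highest of its group and passed the second WT library, the lowest of its own, so the groups overlapped; log2 differences were -0.30, -0.26 and -0.50 with an adjusted p of 0.758 each. The summed list was 341.1, 287.7 and 350.2 CPM in WT and 274.2, 302.4 and 256.8 CPM in FL. Ptprc, the common leukocyte antigen CD45, was at 3.74, 2.87 and 8.12 CPM in WT and 4.35, 4.77 and 2.77 CPM in FL (log2 difference -0.30, interval -1.05 to 0.46).

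Complement genes, several of which macrophages and stromal cells make, were negative for 10 of 14 tested, with a median of -0.125 and no call, which was -0.0791 without the first FL library. Serping1, the C1 inhibitor, was at 128, 138 and 137 CPM in WT and 117, 107 and 120 CPM in FL without overlap (log2 difference -0.22, interval -0.38 to -0.07, adjusted p = 0.758). Clu, clusterin, had a log2 difference of -0.19 and C1qa, a chain of C1q, of -0.27. Of 14 neutrophil markers 1 could be tested, and Ly6g, Camp, Elane and Mpo had no count in any library, where a count of 0 allows up to 0.452 CPM in the smallest library. Of 18 lymphocyte markers 2 could be tested, none was called, and Cd8a had no count in any library. Most of their summed level, 232.9 to 309.9 CPM in WT and 269.7 to 365.2 CPM in FL, came from Ighm, the immunoglobulin mu heavy chain, at 225, 252 and 303 CPM in WT and 263, 269 and 359 CPM in FL (log2 difference 0.19, interval -0.22 to 0.60, adjusted p = 0.873). Transcripts of 3 inflammatory mediators, named after their values were seen, were near the same floor: Il6 was between 0 and 0.292 CPM, Cxcl1 between 0.13 and 0.597 CPM and Ccl2 between 0.281 and 1.04 CPM in the 6 libraries, and none of the 3 could be tested. Of the 25 chemokines and cytokines listed, 10 were tested, 4 positive and 6 negative, with none called.

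The NF-kB subunits and feedback genes had a median of 0.206, with 10 of 14 tested members positive under every scaling tried and none called. Without the second FL library 8 were positive and 6 negative. The median was 0.148 without the third FL library, when 1 member had an unadjusted p under 0.05, against 3 with all libraries. Rela, the p65 subunit, was at 20.4, 17.5 and 21.5 CPM in WT and 24.6, 24.5 and 30.2 CPM in FL without overlap (log2 difference 0.42, interval 0.14 to 0.69, adjusted p = 0.758). Nfkbia, the inhibitor that NF-kB itself induces, was at 21.2, 22 and 27.1 CPM in WT and 26.5, 27.4 and 35.5 CPM in FL, and Nfkb2 had a log2 difference of 0.53. The summed level was 165.2 to 172.3 CPM in WT and 178.1 to 194.6 CPM in FL, without overlap. An exact permutation test of the sums gave p = 0.1, the smallest p that 3 against 3 libraries allow. The sums of the slow fibre, heat shock, glycolysis, respiratory chain and bone, marrow and cartilage lists gave the same p. Among 27 genes that answer glucocorticoids, fasting or atrophy, 18 were positive with a median of 0.07, which was 0.00186 without the first FL library. Per1, a clock gene that glucocorticoids induce, was at 11.4, 18.1 and 10.4 CPM in WT and 17.6, 15.4 and 23.1 CPM in FL. Gadd45g had a log2 difference of 0.43 and Sgk1 of 0.25.

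Nerve, fat and blood gave the last set of cell markers. Of 7 Schwann cell markers tested, 6 were positive and none was called. Their median was 0.409, and 0.256 without the second WT library. Prx, periaxin, was at 5.90, 6.65 and 8.26 CPM in WT and 10.4, 8.06 and 10.4 CPM in FL, where the second FL library lay below the third WT library (log2 difference 0.47, interval 0.05 to 0.89, adjusted p = 0.758). The summed level of all 12 listed overlapped, at 164.7 to 178.6 CPM in WT and 175.2 to 201.7 CPM in FL. Adipoq, the fat cell hormone adiponectin, was at 22.3, 26.3 and 30 CPM in WT and 20.5, 23.4 and 24.2 CPM in FL (log2 difference -0.21, interval -0.48 to 0.06). Hbb-bs, a beta globin, overlapped at 67.3, 93.0 and 75.9 CPM in WT and 86.2, 85.5 and 63.6 CPM in FL. None of the 45 lists examined had a called member.

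Some genes differed widely among libraries of the same genotype. Gm10800, a predicted gene at chr2:98666547-98667301, was at 4329, 36.5 and 25.8 CPM in WT and 3362, 930 and 567 CPM in FL. Its neighbour Gm10801 and the predicted gene Gm21738 were likewise highest in the first library of each genotype, at 834 and 262 CPM in WT and 643 and 189 CPM in FL. Rnf187, a ubiquitin ligase gene, was at 15.6, 41.1 and 101 CPM in WT and 103, 92.6 and 81.4 CPM in FL, and Mbnl1, a splicing regulator of muscle, at 795, 272 and 263 CPM in WT and 774, 529 and 321 CPM in FL. Rcan1, a calcineurin inhibitor, was at 286, 98.3 and 137 CPM in WT and 166, 91.9 and 99.7 CPM in FL. Cish, a cytokine-induced inhibitor of JAK and STAT signalling, was at 30.1, 77.2 and 27.8 CPM in WT and 130, 51.0 and 16.5 CPM in FL. Nnt, the mitochondrial transhydrogenase, was at 75.3, 143 and 74.8 CPM in WT and 107, 30.4 and 67.6 CPM in FL, and Chac1, a glutathione-degrading enzyme of the ATF4 response, at 21.2, 94.7 and 26.5 CPM in WT and 83.1, 74.6 and 33.3 CPM in FL. The SD of log2 CPM within WT was 4.10 for Gm10800 and 1.31 for Rnf187, beside a median of 0.088 over the 2155 genes with a mean of at least 50 CPM, and within FL it was 1.45 for Cish beside 0.076. The 95% intervals of the genotype difference were correspondingly wide, from -5.90 to 6.19 for Gm10800 and from -1.97 to 3.05 for Cish.

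**Figure D4:**
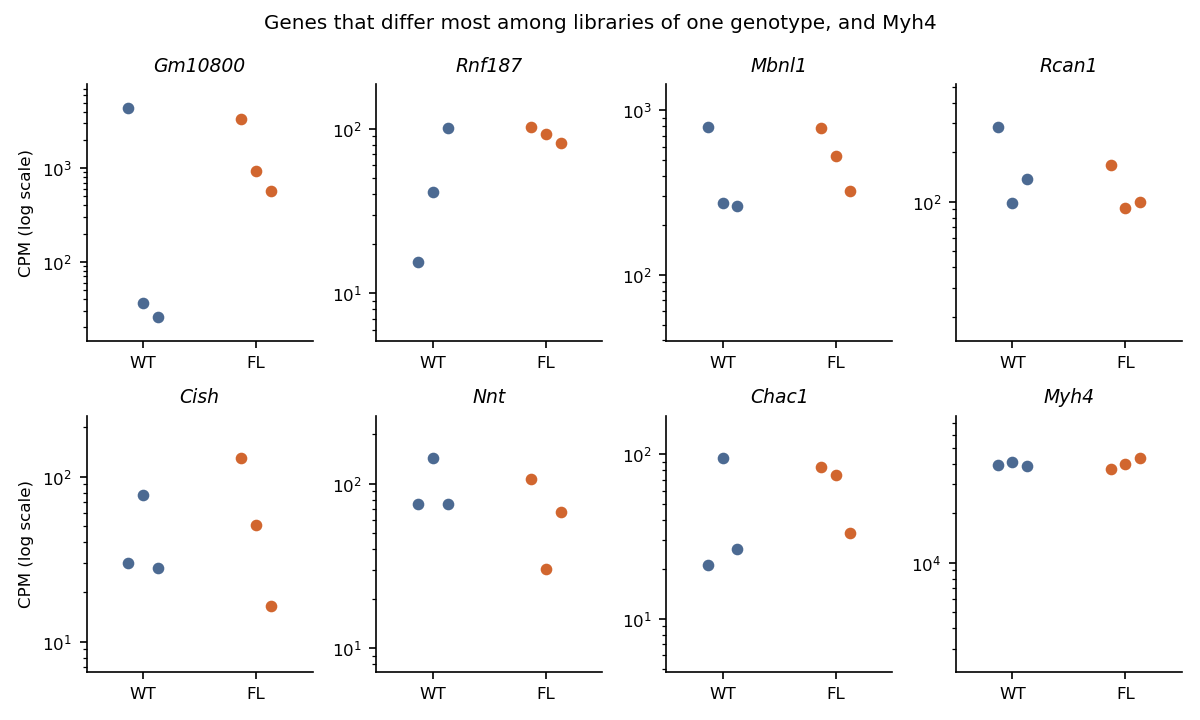
Each point is 1 library (WT left, FL right), on a logarithmic axis of CPM, for 7 of the genes that vary most among libraries of a genotype and, for scale, Myh4. Gm10800 spans 25.8 to 4329 within WT, while Myh4 stays between 36983 and 43174 in all 6 libraries.

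The genotype difference in quadriceps was then set against that between Piezo1 mutant and WT mice in other tissues, by testing the difference of the 2 log2 differences in edgeR. The titles of the tibialis anterior mutants say Piezo1 KO, called FL here, and neither heart nor tibialis anterior titles name the Cre. Against heart of uninjured mice, 5 of 16470 genes (0.0304%) were called, and the quadriceps log2 differences of these 5 lay between -0.25 and 0.01. These 5 had low counts in heart, and the filter was run over both tissues together. Against tibialis anterior muscle 7 days after cardiotoxin, 0 of 13720 (0%) were called and 526 had an unadjusted p under 0.05. Against stromal cells sorted from sedentary mice, 0 of 14568 (0%) were called and 1087 had an unadjusted p under 0.05. Apart from Piezo1, the genes that follow were named for a small p in quadriceps. Their intervals thus do not carry the meaning they have for genes chosen beforehand. For Fos the genotype log2 difference was -0.37 in heart, and the quadriceps difference exceeded it by 1.68 (interval 0.74 to 2.63, adjusted p = 0.69). Bcl6b was at 26.7 and 27.8 CPM in WT and FL heart, and the difference of differences was 0.89 (interval 0.38 to 1.40, adjusted p = 0.69). For Dll4 it was 0.64 against heart and 0.83 against tibialis anterior (interval 0.42 to 1.23, adjusted p = 1.0). Egr1 in heart had a log2 difference of 0.91, and quadriceps differed from that by -0.08 (interval -0.69 to 0.52). Lyz2 and Cbr2 had lower means in FL quadriceps, though neither was called there and Lyz2 overlapped between genotypes. Their log2 differences in heart were 0.32 and 0.18. The edgeR tests of the differences of differences, -0.59 and -0.82, had adjusted p of 0.435 and 0.524. Ddit4l and Coq8a had heart log2 differences of -0.29 and -0.16, and their differences of differences, -0.04 and -0.08, had intervals that included 0. Piezo1 was at 42.5 CPM in WT and 61.5 CPM in FL sorted stromal cells, at 21.3 and 19.9 CPM in heart and at 16.5 and 15.7 CPM in tibialis anterior, and no test called its difference from quadriceps.

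**Figure D5:**
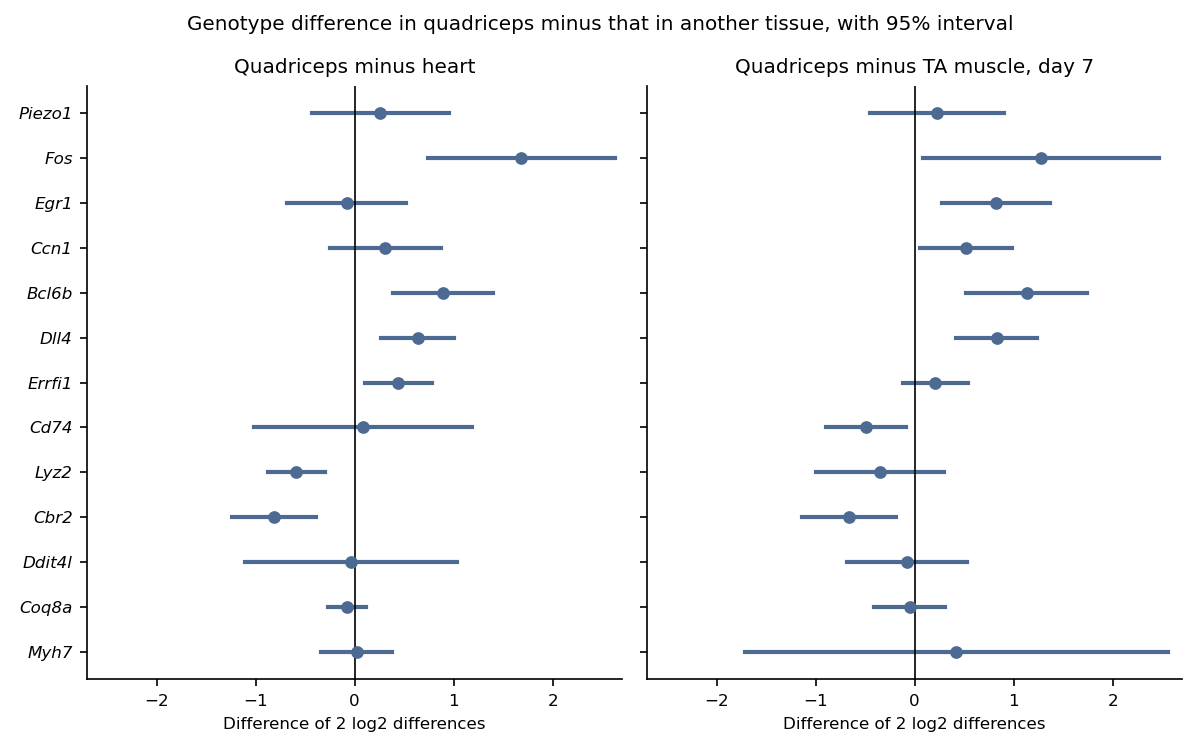
Points are the log2 difference of FL minus WT in quadriceps minus the same in uninjured heart (left) or in tibialis anterior muscle 7 days after injury (right), and lines are 95% intervals. The tibialis anterior mutants are titled Piezo1 KO. Most genes shown were named for a small p in quadriceps. Fos, Bcl6b and Dll4 lie above 0 and Cbr2 below 0 in both panels, and no gene shown had an adjusted p under 0.05 in either.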

How the data were processed

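Whole-muscle polyA RNA libraries were made from 2 ng of TRIzol-extracted RNA, per the labels' protocols. The authors deposited 1 table of raw counts per gene for all 90 samples; reads were aligned to mm10 with STAR 2.7.3a and counted with featureCounts, per the submitters' processing notes. The annotation, strand setting and multi-mapping rule were not stated in any source read for this work; genes with near-identical copies, antisense or overlapping genes are therefore uncertain. Columns were matched to samples by title; 12 columns of the sorted stromal cells, 6 of them used here, match only their group.

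From the counts, edgeR 4.0.16 in R 4.3.3 (filterByExpr with a minimum count of 10, TMM factors, robust quasi-likelihood fit, Benjamini-Hochberg adjustment over all genes tested, called at an adjusted p under 0.05) gave log2 differences with 95% intervals and CPM. Differences between tissues were tested as an interaction, with TMM factors per cohort. The fit was tested on simulated counts. Libraries were grouped by genotype label; no pair of libraries agreed within sampling noise (lowest chi-square per gene 2.75). Same-numbered libraries deviated together with correlations of 0.135, -0.0718 and 0.0787. The labels do not say that a number marks a litter or day, so numbers were not taken to pair libraries in the main fit. Even so, Gm10800, Gm10801, Gm21738, Mbnl1 and Rcan1 were highest in the first library of both genotypes, and whether these shared a batch was not tested. Positions and exon lengths come from GENCODE M21, in which 96.2% of the 55011 symbols were found. Exact tests enumerated every split of the libraries into 3 and 3, in Python 3.11.15. Alternatives were DESeq2 1.42.0, other scalings and filters, a replicate block, thinning, a joint fit with tibialis anterior and leaving out each library; a minimum count of 5 or 3 and limma voom 3.58.1 were chosen after seeing the data.

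The comparison and the gene lists were chosen with earlier results of these data known. Named genes were Piezo1, a panel of tissue genes, the 15 genes per direction with the smallest p and a mean that reached 10 CPM in either genotype (predicted, pseudo- and mitochondrial genes left out), up to 3 per list with the smallest p, up to 6 per genotype with the largest SD of log2 CPM at 50 CPM or more, and genes called between tissues. Some genes named by this rule are not reported here.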

Additional observations from a re-analysis of the deposited data

Results flagged for a closer look

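The genotype difference in quadriceps differed from that in uninjured heart, by the interaction test in edgeR, for 5 genes, and none of the 5 was called in quadriceps. All 5 are genes of skeletal muscle whose heart level was below 2 CPM. The filter on low counts was run over both tissues together, and the quadriceps levels were far above the heart levels. The calls thus rest on low heart counts and not on a genotype difference called in quadriceps. St8sia5, a sialyltransferase, was at 56.7, 54.0 and 44.9 CPM in WT quadriceps and 54.5, 42.7 and 42.6 CPM in FL quadriceps, and at means of 0.106 CPM in WT and 1.73 CPM in FL heart; the difference of the log2 differences was -4.15 (adjusted p = 9.486e-04). Mstn, myostatin, an inhibitor of muscle growth, was at 76.6, 91.0 and 65.8 CPM in WT quadriceps and 57.4, 62.7 and 76.5 CPM in FL quadriceps, and at 0.226 and 1.27 CPM in heart (-2.76, adjusted p = 0.00368). Crym, a thyroid hormone-binding protein, named after its values were seen because it lies below 10 CPM, was at 4.56 to 6.26 CPM in WT and 4.67 to 5.90 CPM in FL quadriceps and at 0.0219 and 0.563 CPM in heart (-4.51, adjusted p = 0.0347). Jsrp1, a protein of the junctional sarcoplasmic reticulum, was at 208 to 243 CPM in WT and 206 to 228 CPM in FL quadriceps and at 0.15 and 0.497 CPM in heart (-1.79, adjusted p = 0.0469). Sypl2, which codes for mitsugumin 29 of the triad junction, went the other way, with 128 to 174 CPM in WT and 148 to 154 CPM in FL quadriceps and 0.912 and 0.236 CPM in heart (1.94, adjusted p = 0.0469). The heart difference was called in the same fit for each of the 5, with log2 differences of 3.99 for St8sia5, 2.51 for Mstn, 4.39 for Crym, 1.74 for Jsrp1 and -1.93 for Sypl2. With 1 quadriceps library left out, 2 to 4 genes were called.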

How the results depend on the processing

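The count of called genes was 0 under RLE, upper quartile and library-size scaling, minimum counts of 3, 5 and 30, thinning, DESeq2, limma voom and a joint fit with tibialis anterior. With the replicate block it was also 0 (smallest adjusted p 0.543). The comparison with heart was not run with the block. Without any filter on low counts edgeR called 20 of 30391 genes (0.0658%), 16 higher and 4 lower, with Ier2 and Igfbp3 at the smallest adjusted p (2.499e-04), Fos, Egr1, Ccn1 and Bcl6b among the higher and Cbr2 and Ddit4l among the lower; the median prior degrees of freedom were then Inf, against 17.8 with the filter. Leaving out 1 library gave 0 to 1 calls, the 1 being F830016B08Rik without FL replicate 1, and smallest adjusted p from 0.0307 to 0.494. Quadriceps against heart gave 2 to 4 calls with a replicate left out. The direction reversed for 15 named genes. Not all of these were near 0 with every library: Rcan1 was at -0.54, Cish at 0.54, Ptprc at -0.30 and Mbnl1 at 0.29. With a library left out, the lowest and highest log2 differences were -0.027 and 0.58 for Piezo1, -0.25 and 0.049 for Pdgfra, -0.13 and 0.28 for Col1a1, -0.16 and 0.24 for Col3a1, -0.0402 and 0.0694 for Myh4, -0.58 and 0.27 for Ptprc, -0.11 and 0.13 for Hbb-bs, -0.97 and 5.69 for Gm10800, -0.95 and 5.15 for Gm10801, -1.30 and 5.18 for Gm21738, -0.066 and 1.01 for Mbnl1, -0.86 and 0.017 for Rcan1, -0.43 and 1.19 for Cish, -0.085 and 0.14 for Sypl2 and -0.092 and 0.026 for Jsrp1. Hbb-bs was 0.028 with library size alone and 0.0014 with a minimum count of 30. Myh4 was -0.012 and Sypl2 -0.015 in the joint fit with tibialis anterior. Gm21738 was 0.000798 with library size alone, 2.48 with limma voom and 1.36 with the replicate block. Of 2155 values for 120 named genes under 18 alternatives, 2103 kept direction and side of the threshold and 15 crossed it. Depth limits genes under 10 CPM most, where 69% of intervals lay within -1 and 1.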

Other observations

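Several other gene groups had no called member and medians between -0.07 and 0.05. Interferon-stimulated genes split into 12 positive and 13 negative of 25, with a median of -0.01 (6 positive and a median of -0.0824 without the second WT library), and none had an unadjusted p under 0.05. Calcium handling genes split into 8 and 13 of 21, with a median of -0.03 (12 positive and a median of 0.0123 without the second WT library), and muscle excitability channels into 11 and 4 of 15, with a median of 0.05 (0.024 without the first FL library). Circadian clock genes, which differ between muscles taken at different times of day, split into 6 positive and 14 negative of 20, with a median of -0.06; without the second WT library 10 were positive and the median was 0.0079. Heat shock genes were negative for 11 of 17 with a median of -0.07 (0.0026 without the first WT library), and Hsph1, a co-chaperone of HSP70, was at 121, 115 and 122 CPM in WT and 91.3, 103 and 106 CPM in FL.

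Nmrk2 and Slc15a2, chosen after their values were seen, were 2 of the 20 genes called without a filter on low counts. Nmrk2, a nicotinamide riboside kinase of muscle, was at 295, 315 and 314 CPM in WT and 507, 353 and 385 CPM in FL (log2 difference 0.43, interval 0.14 to 0.72, adjusted p = 0.758 with the filter). Slc15a2, a peptide transporter, was at 3.60, 8.87 and 6.27 CPM in WT and 2.53, 4.03 and 1.46 CPM in FL.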
